A study of Mus musculus with 4 samples.

Results

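The genes described here are 7 C-type lectin-like receptor genes of the mouse natural killer (NK) gene complex: Klrg1, Klrc1, Klrc2, Klrd1, Klrk1, Klre1 and Klrb1c. They were taken by symbol from the feature lists, where each has 1 identifier among 28692 genes, and their RNA was counted in 4 droplet 3' libraries from tumours of B16-F10, a melanoma line grown in C57BL/6 mice. Tumour-bearing mice received Pmel-1 CD8 T cells on day 3. Every Pmel-1 cell bears the same transgenic T cell receptor, which sees the melanocyte protein gp100, and the cells had been transduced with IRF4-GFP in the IRF4 arm or with GFP-control in the control arm. On day 14 the transferred cells of each arm were sorted from the tumour, and so were the endogenous CD45+ cells of each arm, which gave the groups transferred IRF4, transferred control, endogenous IRF4 and endogenous control with 1 library each. The endogenous cells of both arms were not transduced themselves, and the labels do not say how many mice were pooled. With 1 library per group there is no replicate check on any difference between groups, and no test was made. Intervals in parentheses are 95% intervals for counting error only.

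These receptors are membrane proteins of NK cells and of some T cells that read the state of other cells. CD94, the product of Klrd1, pairs with NKG2A, the product of Klrc1, or with NKG2C, the product of Klrc2, and the pairs bind the non-classical class I molecule Qa-1b. The NKG2A pair carries inhibitory ITIM motifs, and the NKG2C pair signals through the adaptor DAP12, the product of Tyrobp. NKG2D, the product of Klrk1, binds stress-induced ligands of the RAE-1, H60 and MULT1 families and signals through DAP10, the product of Hcst, and in mouse NK cells also through DAP12. KLRE1 pairs with KLRI1 or KLRI2, as shown in rat NK cells. Klrb1c encodes NK1.1, an activating receptor used in C57BL/6 mice to mark NK cells. KLRG1 is an inhibitory receptor for cadherins that marks mature NK cells, short-lived effector CD8 T cells and activated regulatory T cells.

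All 7 genes lie on chromosome 6 of mm10 (GRCm38, GENCODE vM21). Klre1 (129577905 to 129585827, plus strand), Klrd1 (129591782 to 129598775, plus), Klrk1 (129610323 to 129623864, minus), Klrc2 (129647496 to 129660689, minus) and Klrc1 (129666015 to 129678973, minus) follow each other within 101.1 kb. The lowest coordinate of Klrb1c (128778485 to 128789215, minus) lies 799 kb, and that of Klrg1 (122270596 to 122282882, minus) 7307 kb, below that of Klre1. Klrc1 and Klrc2 are close paralogues: 39.3% of the 50-base words in the 3' ends of Klrc1 transcripts, where this assay reads, also occur in Klrc2 transcripts, and 15.8% of those of Klrc2 occur in Klrc1. Reads could therefore be lost or split between these genes, and their separate levels are uncertain to that extent. Exons of Klrb1c overlap those of Gm44511 on the same strand over 413 bases, 13.9% of the exonic length of Klrb1c.

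Start regions of some of the 7 genes are shown because these genes were high together in NK cells in the counts below. RefSeq promoter windows (GRCm38.p6, 250 bases before to 50 after the start of a transcript) were matched by symbol for 5 of the 7 genes, Klrb1c, Klre1, Klrk1, Klrc2 and Klrc1. Capitals mark each match to TGTGGT, the core bound by RUNX factors, or to its reverse complement ACCACA. All 5 genes had the core in at least 1 window and 6 of their 7 windows held it, against 16.8% of all 32851 windows of that length. These windows are not all separate. Those of Klrc2 overlap each other and hold the same matches, those of Klre1 overlap as well, and Klrc1 and Klrc2 are close paralogues. AGGTGT (reverse ACACCT), a T-box core, was in none of the 7 windows, against 13.7% of all windows. CTTTGA (reverse TCAAAG), the core of TCF factors, was in the Klrk1 window only, against 16.003% of all windows. The interferon-stimulated response element, searched on both strands as GAAA repeated after a gap of 2 bases, was in none, against 3.44% of all windows. A match is a description of these letters and not a binding site. The Klrc2 windows and a Klre1 window without the RUNX core are not printed. The windows of Klrb1c (chr6:128788592-128788891, minus strand), Klre1 (chr6:129577963-129578262, plus strand), Klrk1 (chr6:129623815-129624114, minus strand) and Klrc1 (chr6:129678924-129679223, minus strand) read 5′ to 3′ as follows.
Klrb1c: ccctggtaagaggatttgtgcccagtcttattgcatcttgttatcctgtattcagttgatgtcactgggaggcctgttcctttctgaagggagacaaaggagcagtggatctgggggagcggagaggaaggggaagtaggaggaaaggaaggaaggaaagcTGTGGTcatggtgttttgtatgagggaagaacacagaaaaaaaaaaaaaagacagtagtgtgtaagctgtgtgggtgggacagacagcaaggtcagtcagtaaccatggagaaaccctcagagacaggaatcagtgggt
Klre1: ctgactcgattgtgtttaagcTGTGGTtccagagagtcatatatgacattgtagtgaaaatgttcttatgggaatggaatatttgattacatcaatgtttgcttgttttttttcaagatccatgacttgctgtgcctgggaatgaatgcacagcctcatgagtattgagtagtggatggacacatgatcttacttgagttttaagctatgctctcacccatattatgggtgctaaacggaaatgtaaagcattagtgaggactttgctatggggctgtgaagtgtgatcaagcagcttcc
Klrk1: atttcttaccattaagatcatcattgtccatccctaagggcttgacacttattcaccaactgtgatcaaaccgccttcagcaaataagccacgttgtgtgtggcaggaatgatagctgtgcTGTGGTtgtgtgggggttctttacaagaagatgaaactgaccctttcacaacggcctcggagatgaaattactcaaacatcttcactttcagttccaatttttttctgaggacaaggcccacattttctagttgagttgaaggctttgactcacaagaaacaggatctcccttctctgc
Klrc1: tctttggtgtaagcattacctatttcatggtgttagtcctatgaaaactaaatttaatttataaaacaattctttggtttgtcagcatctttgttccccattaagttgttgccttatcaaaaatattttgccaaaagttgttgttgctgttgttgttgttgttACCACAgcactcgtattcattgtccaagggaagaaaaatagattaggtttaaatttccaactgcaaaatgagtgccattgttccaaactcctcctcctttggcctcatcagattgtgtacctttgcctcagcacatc
The match began 89 bases before the start site in Klrb1c, 229 in Klre1, 129 in Klrk1 and 87 in Klrc1.

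Of 17711 barcodes, 15132 were kept, and the libraries had medians of 8437 to 19963 UMIs (unique molecular identifiers, counted molecules) per kept cell. Cells were sorted into gates by marker UMIs, with none of the 7 genes used. A cell of the CD8 T gate had a CD3 gene and Cd8b1 but no Cd4, Ncr1 or Cd79a UMI. A cell of the NK gate had an Ncr1 UMI and no CD3, Cd8b1, Cd4 or Cd79a UMI, which does not part NK cells from other Ncr1-bearing innate cells. Both gates allowed at most 0.1% of UMIs from Lyz2, C1qa and C1qb. The CD8 T gate held 472 transferred IRF4, 2025 transferred control, 1903 endogenous IRF4 and 690 endogenous control cells. The NK gate held 724 endogenous IRF4 and 423 endogenous control cells, with only 2 and 4 in the transferred libraries, which were not used. All 5 NK check markers (Eomes, Tbx21, Gzma, Prf1 and Txk) were highest in the NK gate in both libraries, set against the CD8 T, B and monocyte or macrophage gates. Of the 5 CD8 T check markers (Trac, Trbc2, Cd2, Cd8a and Thy1), 5 in the endogenous IRF4 library and 4 in the endogenous control library were highest in the CD8 T gate, where Cd2 was higher in the NK gate. Median UMIs per cell were 5127 and 5079 in the NK gate and 11050 and 8874.5 in the CD8 T gate of the endogenous IRF4 and control libraries. The libraries share 26 barcodes in all, at most 18 between any pair. Levels below are CPM, the UMIs of a gene relative to all UMIs of the same gated cells. Irf4 itself stood at 27.7 (24.9 to 30.7) and 25.7 (24.4 to 26.95) CPM in the CD8 T gate of the transferred IRF4 and transferred control libraries, and the files do not say whether vector transcripts were counted as Irf4, so this does not check the labels.

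NK gate cells held far more RNA of most of the 7 genes than CD8 T gate cells, and NK1.1 set them apart most. A gene was measured at 10 CPM or more on either side, and higher or lower means a ratio of at least 1.5 after 1 CPM was added to both sides, while printed ratios are plain ratios of CPM. Of the 7 genes, 6 were higher in the NK gate of the endogenous IRF4 library and 7 in that of the endogenous control library, where 19.1% and 17.4% of all measured genes were higher and 36.4% and 32.2% were past the threshold in either direction. Their median log2 ratios were 2.87 and 2.605, against 0.04 and 0.07 over all measured genes. The plot of the 7 genes by gate and library shows these levels.

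**Figure D1:**
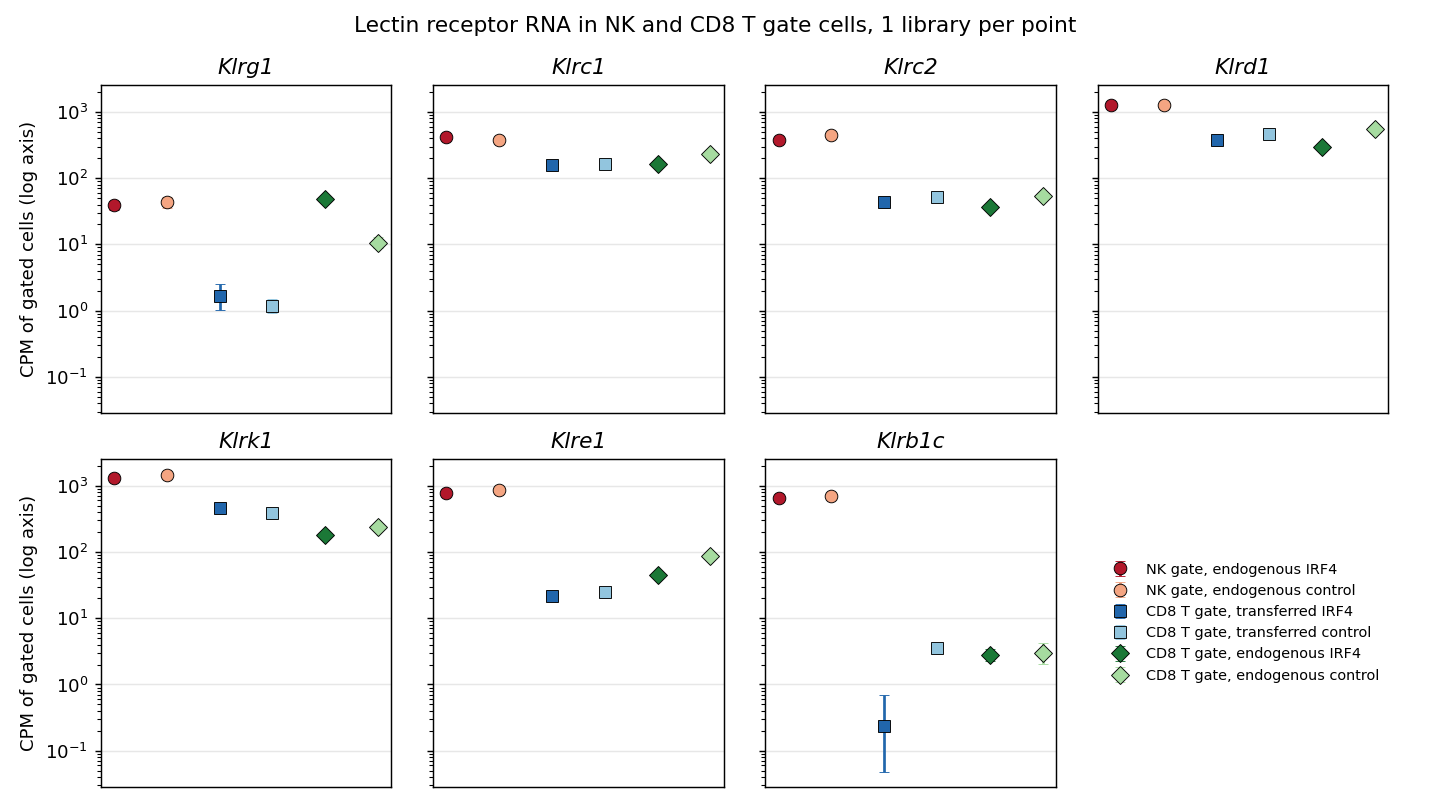
CPM of each receptor gene (log axis) in NK gate cells of the 2 endogenous libraries and CD8 T gate cells of all 4 libraries, 1 point per library with a 95% Poisson interval. Klrb1c lies near 650 to 700 CPM in NK gate cells and under 4 CPM in every CD8 T gate. Klrg1 in endogenous IRF4 CD8 T gate cells lies at 47.9 CPM, against 39.0 CPM in NK gate cells of the same library.

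Klrb1c had 647 (623 to 671) and 697 (664 to 731) CPM in the NK gate of the endogenous IRF4 and control libraries, against 2.80 (2.26 to 3.43) and 2.97 (2.02 to 4.22) CPM in the CD8 T gate of the same libraries. The intervals of the gates did not overlap in either library, and the ratios were 231 (188 to 287) and 235 (165 to 346). B gate cells, which should lack the gene, held 1.74 (0.0441 to 9.71) and 3.89 (1.68 to 7.67) CPM, the control value from 8 UMIs in 3 cells. Monocyte or macrophage gate cells held 1.46 (0.864 to 2.30) and 0.737 (0.456 to 1.13) CPM. Within the endogenous IRF4 CD8 T gate Klrb1c had 0.481 CPM in cells with and 5.81 CPM in cells without a Mki67 or Top2a UMI. The CD8 T gate excludes Ncr1, and Klrb1c RNA also stood at 331 and 424 CPM in cells with both Ncr1 and CD3 UMIs, of which there were 401 and 126. Klre1 followed with 784 (758 to 810) and 847 (811 to 884) CPM in the NK gate against 45.03 (42.8 to 47.4) and 88.1 (82.5 to 93.98) CPM in the CD8 T gate. Its ratios were 17.4 (16.4 to 18.5) in the endogenous IRF4 library and 9.61 (8.89 to 10.4) in the endogenous control library.

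Among the CD94 partners, the activating chain differed more between the cell types than the inhibitory chain. Klrc2 had 375 (357 to 393) and 443 (417 to 470) CPM in the NK gate of the endogenous IRF4 and control libraries, against 36.65 (34.6 to 38.8) and 53.7 (49.3 to 58.3) CPM in the CD8 T gate, ratios of 10.2 (9.49 to 11.02) and 8.25 (7.45 to 9.16). Klrc1 had 417 (398 to 436) and 377 (353 to 402) CPM in the NK gate, against 162 (157 to 166) and 233 (224 to 242) CPM in the CD8 T gate, ratios of 2.58 (2.44 to 2.72) and 1.62 (1.499 to 1.75). The ratios of the pair carry the uncertainty of their shared 3' sequence. Klrd1, their shared partner, had 1279.9 (1247 to 1314) and 1270.3 (1226 to 1316) CPM in the NK gate, against 299.5 (294 to 305) and 551 (536 to 565) CPM in the CD8 T gate. Its ratios were 4.27 (4.14 to 4.42) and 2.31 (2.21 to 2.41). In cells without a cycle gene UMI of the IRF4 library the log2 ratios were smaller, 2.38 against 3.32 for Klrc2 and 1.49 against 2.09 for Klrd1, and both calls were kept.

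Klrk1 had 1325 (1291 to 1359) and 1469 (1421 to 1518) CPM in the NK gate of the endogenous IRF4 and control libraries, against 179.8 (175 to 184) and 241 (231 to 250.2) CPM in the CD8 T gate, ratios of 7.37 (7.11 to 7.64) and 6.10 (5.80 to 6.43). The log2 ratio of the IRF4 library was 2.10 in cells without a cycle gene UMI, against 2.87 in all cells. The signalling partners differed by adaptor. Tyrobp had 2460 and 2599 CPM in the NK gate against 61.1 and 193 CPM in the CD8 T gate. Hcst, the adaptor that T cells use with NKG2D, had 519 and 519 CPM in the NK gate against 334 and 361 CPM in the CD8 T gate, with ratios of 1.55 (1.48 to 1.62) and 1.44 (1.35 to 1.53). Klri2, a partner of KLRE1, had 229 and 250.4 CPM in the NK gate against 3.53 and 6.52 CPM in the CD8 T gate.

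Klrg1 was the exception among the 7 genes, because its order between the cell types was not the same in both libraries. It had 39.0 (33.4 to 45.2) CPM in the NK gate against 47.9 (45.6 to 50.3) CPM in the CD8 T gate of the endogenous IRF4 library, a ratio of 0.813 (0.691 to 0.952) that was neither higher nor lower by the rule. In the endogenous control library it had 43.6 (35.7 to 52.7) CPM in the NK gate against 10.6 (8.75 to 12.8) CPM in the CD8 T gate, a ratio of 4.10 (3.11 to 5.39). The order in the IRF4 library also turned with the cells taken, with log2 ratios between -0.59, without the 5% of gated cells with the most UMIs, and 0.62, in cells without a cycle gene UMI. The difference between the libraries was not tested.

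Between arms, endogenous CD8 T gate cells held more Klrg1 and less Klrd1 and Klre1 RNA in the IRF4 arm. Of the 6 genes measured, 1 was higher (Klrg1) and 2 were lower (Klrd1 and Klre1), where 3.79% of 7764 genes were higher, 6.89% lower and 10.7% either. The median log2 ratio of the 6 genes was -0.53, against 0.01 over all measured genes. Klrg1 had 47.9 CPM in the endogenous IRF4 library and 10.6 CPM in the endogenous control library, a ratio of 4.50 (3.71 to 5.51). It was found in 505 of 1903 cells, 26.5% (24.6 to 28.6), in the IRF4 library and in 55 of 690 cells, 7.97% (6.06 to 10.2), in the control library. After each cell was thinned to 2000 UMIs these shares were 7.47% (6.32 to 8.74) and 2.46% (1.44 to 3.92). No B gate cell had a Klrg1 UMI, 0 of 110 in the IRF4 library and 0 of 444 in the control library, which allows shares of up to 2.73% and 0.676%, at median depths of 3384 and 3639 UMIs. In the IRF4 library 106 of 1903 cells held 50% of the Klrg1 UMIs, and in the control library 11 of 690 did.

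Klrd1 had 299.5 (294 to 305) CPM in endogenous IRF4 and 551 (536 to 565) CPM in endogenous control CD8 T gate cells, a ratio of 0.544 (0.527 to 0.562), and thinned shares of 37.5% (35.4 to 39.8) and 53.3% (49.5 to 57.1). Klre1 had 45.03 (42.8 to 47.4) and 88.1 (82.5 to 93.98) CPM in the same libraries, a ratio of 0.511 (0.470 to 0.555). Klrc1, at 162 and 233 CPM, Klrc2, at 36.65 and 53.7 CPM, and Klrk1, at 179.8 and 241 CPM in the endogenous IRF4 and control libraries, stood at 0.694 (0.662 to 0.729), 0.683 (0.617 to 0.756) and 0.747 (0.713 to 0.783), and were neither higher nor lower. Klrb1c was under 10 CPM in both. Cell cycle UMIs moved with the arm: after thinning, 33.8% of endogenous IRF4 and 18.6% of endogenous control CD8 T gate cells had a UMI of Mki67 or Top2a. Among cells without such a UMI, 1260 in the IRF4 and 562 in the control library, the ratios were 4.01 (3.11 to 5.26) for Klrg1, 0.693 (0.665 to 0.722) for Klrd1, 0.691 (0.616 to 0.776) for Klre1, 0.914 (0.857 to 0.975) for Klrc1 and 0.999 (0.941 to 1.06) for Klrk1. Among the cells with one, 642 and 128, they were 4.62 (3.43 to 6.37), 0.435 (0.413 to 0.459), 0.360 (0.319 to 0.406), 0.512 (0.476 to 0.552) and 0.554 (0.513 to 0.598), in the same order of genes.

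Transcripts of other cell types moved with this comparison as well. All 7 monocyte and macrophage markers (Lyz2, C1qa, C1qb, Csf1r, Cd68, Apoe and Fcgr1) were lower in the IRF4 arm in endogenous CD8 T gate cells, with sums of 98.6 CPM in the endogenous IRF4 and 324 CPM in the endogenous control library, and none of the 7 was at 0. Their sums in the NK gate were 122 and 263 CPM. B cell markers (Cd79a, Cd79b, Ms4a1 and Pax5) summed to 4.46 and 7.38 CPM in the CD8 T gate, with Cd79a, which the gate excludes, and Pax5 at 0. Of the NK markers other than Ncr1, which the gate sets to 0, 2 were higher and 3 lower in the IRF4 arm, with sums of 386 and 406 CPM. The part of these transcripts in the receptor values was not tested. The calls for Klrd1 and Klre1 ended in 4 and 3 of the 16 alternatives under which their log2 ratios were recomputed. Both ended in cells without a UMI of any of 5 cycle genes, and both also ended when the threshold was a ratio of 2. In those cells the log2 ratio between arms was -0.16 for Klrd1, against -0.88 in all cells, and turned to 0.09 for Klre1, 0.40 for Klrk1, 0.36 for Klrc1 and 0.20 for Klrc2. That of Klrg1 was 1.35 there, against 2.07 in all cells, the lowest of its 16 alternatives, and its call was kept in each. In the thinned split by Mki67 or Top2a none of these others turned. Without a cycle UMI their ratios lay between 0.691, for Klre1, and 0.999, for Klrk1. Cells with a Mki67 or Top2a UMI were also deeper, with medians of 24445 against 7978.5 UMIs in the endogenous IRF4 library. Cycle and depth were not told apart.

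**Figure D2:**
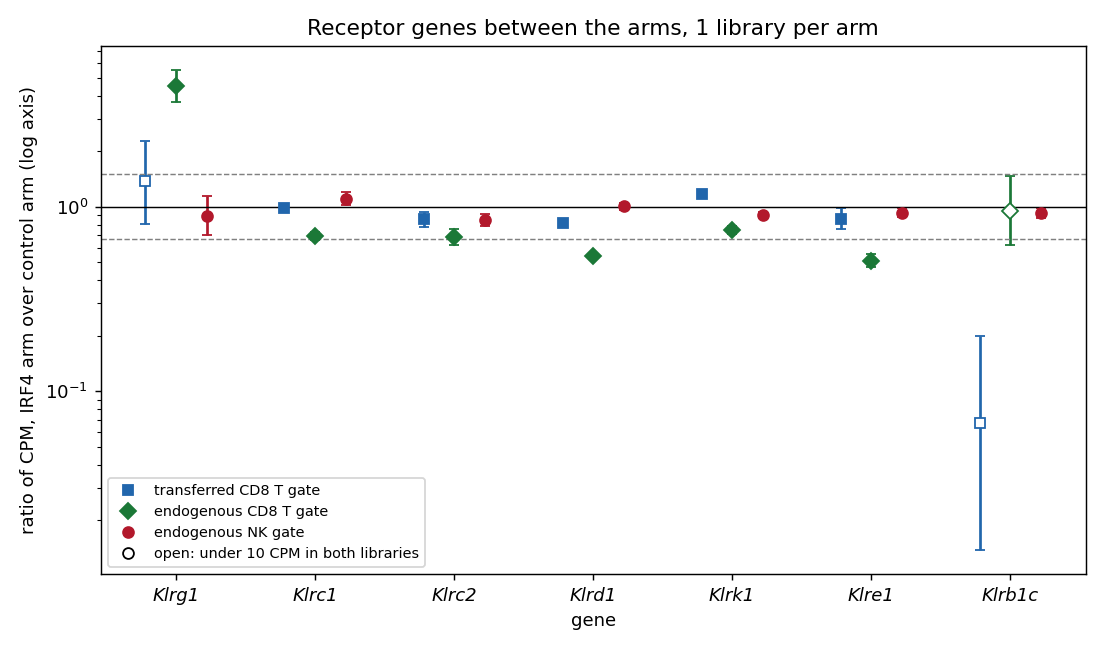
Ratio of CPM in the IRF4 arm over the control arm (log axis) for each gene, with 95% counting intervals, in transferred CD8 T, endogenous CD8 T and endogenous NK gate cells; dashed lines mark ratios of 1.5 and 0.667. Klrg1 in endogenous CD8 T gate cells stands at 4.50, and all 7 genes in NK gate cells lie between 0.846 and 1.11.

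In NK gate cells of the same tumours none of the 7 genes was past the threshold between arms, and few of all genes were. None of the 7 genes was higher or lower in the endogenous IRF4 library, where 2.62% of 7738 genes were higher, 3.06% lower and 5.69% either in NK gate cells. At shares this small, a count of none among 7 does not set these genes apart from genes in general. The ratios lay between 0.846 (0.783 to 0.914) for Klrc2 and 1.11 (1.02 to 1.20) for Klrc1. Klrg1 had 39.0 CPM in the endogenous IRF4 and 43.6 CPM in the endogenous control NK gate, a ratio of 0.894 (0.698 to 1.15). Klrd1 stood at 1.01 (0.964 to 1.05) and Klrk1 at 0.902 (0.865 to 0.9404). Whether the ratios of NK and CD8 T gate cells differ was not tested.

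In transferred Pmel-1 cells, which carried the transduced vector, none of the measured genes among the 7 was past the threshold between arms. Of the 5 genes measured in the transferred CD8 T gate, 0 were higher and 0 lower in the IRF4 arm, where 3.66% and 3.25% of 7479 genes were, 6.91% in either direction. A count of none among 5 is near that share and does not set these genes apart. Klrk1 had 454 (442 to 466) CPM in transferred IRF4 and 387 (382 to 392) CPM in transferred control cells, a ratio of 1.17 (1.14 to 1.21). Klrd1 had 374 (364 to 385) and 457 (451 to 462) CPM, a ratio of 0.819 (0.794 to 0.844). Klrc1 had 158 (151 to 165) and 161 (158 to 164) CPM, a ratio of 0.984 (0.938 to 1.03), and this interval includes 1. Klrc2, at 44.01 and 51.6 CPM, and Klre1, at 21.7 and 25.2 CPM in the transferred IRF4 and control libraries, stood at 0.854 (0.779 to 0.934) and 0.860 (0.754 to 0.978). Klrg1 was under the 10 CPM floor, with 21 UMIs, 1.65 (1.02 to 2.52) CPM, in transferred IRF4 and 74 UMIs, 1.19 (0.933 to 1.49) CPM, in transferred control cells. Klrb1c had 3 UMIs in 472 transferred IRF4 cells and 218 UMIs in 2025 transferred control cells, 0.235 (0.0485 to 0.688) against 3.50 (3.05 to 3.998) CPM. That ratio was 0.0672 (0.0138 to 0.199), at levels too low for a call. All 7 monocyte and macrophage markers were lower in the IRF4 arm here too, with sums of 85.04 and 215 CPM in the transferred IRF4 and control libraries, and their part was not tested.

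Transferred CD8 T gate cells had more Klrk1 and less Klrg1 and Klre1 than endogenous CD8 T gate cells of the same arm. These comparisons use the same libraries as those above and are no independent evidence. In the IRF4 arm 1 of 6 measured genes was higher and 2 were lower in transferred cells, where 5.74% and 10.4% of all measured genes were, 16.1% in either direction. In the control arm the counts were also 1 and 2, where 6.69% and 14.4% were, 21.1% in either direction. Klrk1 had 454 CPM in transferred against 179.8 CPM in endogenous IRF4 cells, a ratio of 2.53 (2.44 to 2.62), and 387 CPM in transferred against 241 CPM in endogenous control cells, a ratio of 1.61 (1.54 to 1.68). Klrg1 had 1.65 CPM in transferred against 47.9 CPM in endogenous IRF4 cells, a ratio of 0.0344 (0.0212 to 0.0527), and 1.19 CPM in transferred against 10.6 CPM in endogenous control cells, a ratio of 0.112 (0.0821 to 0.151). After thinning, 2 of 472 transferred IRF4 cells (0.424%) and 10 of 2022 transferred control cells (0.495%) had a Klrg1 UMI. Klre1 had 21.7 CPM in transferred against 45.03 CPM in endogenous IRF4 cells, a ratio of 0.481 (0.421 to 0.547), and 25.2 CPM in transferred against 88.1 CPM in endogenous control cells, a ratio of 0.286 (0.263 to 0.310). In cells without a cycle gene UMI the log2 ratio of Klre1 in the control arm was -0.16, against -1.77 in all cells, and the call ended. That of Klrg1 in the IRF4 arm was -2.23 there, against -4.21, and the call was kept. Klrd1 stood at 1.25 (1.21 to 1.29) times its endogenous level in transferred IRF4 cells and at 0.830 (0.806 to 0.854) times in transferred control cells, neither past the threshold. The transferred cells carry 1 transgenic receptor, were transduced before transfer and were sorted by their label. Cell origin, receptor, transduction, transfer and sort therefore cannot be told apart here.

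Across the gates of the endogenous libraries, regulatory T cells had the most Klrg1, and Klrd1 and Klrk1 were also found in dendritic cell gates. Treg gate cells, with CD3, Cd4 and Foxp3 UMIs, had 139.5 (119 to 163) CPM of Klrg1 in the IRF4 library (93 cells) and 151 (131 to 174) CPM in the control library (62 cells). These intervals overlap each other and lie above those of all other gates measured, the highest of which reached 52.7 CPM in the NK gate of the control library. Thinned shares of Treg gate cells with a Klrg1 UMI were 17.2% (10.2 to 26.4) and 29.03% (18.2 to 41.9). CD4 T gate cells without Foxp3 had 8.89 and 5.54 CPM. Klrd1 stood at 88.5 (72.3 to 107) CPM in the IRF4 and 221 (196 to 248) CPM in the control Treg gate, but few cells carried it. Its UMIs lay in 11 of 93 and 18 of 62 cells, and 2 and 5 cells held 50% of them.

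Gamma-delta T gate cells had NKG2 and CD94 levels between those of NK and CD8 T gate cells of the same library, apart from Klrc1 in the IRF4 library. Klrc1 had 434 (391 to 480) and 289 (242 to 341) CPM in 145 endogenous IRF4 and 74 endogenous control gamma-delta T gate cells, Klrd1 had 785 (726 to 847) and 639 (569 to 715) CPM, and Klrk1 had 423 (380 to 469) and 342 (291 to 399) CPM. In the IRF4 library the Klrc1 interval of these cells overlapped that of the NK gate, at 417 (398 to 436) CPM. Klrg1 was at 9.43 (4.07 to 18.6) CPM in the IRF4 library and had 0 UMIs in the control library, which allows up to 6.36 CPM. Plasmacytoid dendritic cell gate cells held 351 (314 to 391) and 489 (460 to 520) CPM of Klrd1 in the IRF4 and control libraries. Cells in the gate of conventional type 1 dendritic cells held 215 (199 to 232) and 189.5 (176 to 203) CPM of Klrd1 and 215 (199 to 232) and 175 (163 to 189) CPM of Klrk1. The gates are not exclusive, and doublets were not removed: 42 of 76 and 74 of 173 plasmacytoid gate cells, and 85 of 167 and 92 of 190 type 1 gate cells, of the IRF4 and control libraries were also in another gate, and the part of this in their levels was not tested. B gate cells, as background, held 19.2 and 24.3 CPM of Klrd1 and 24.4 and 14.6 CPM of Klrk1. In monocyte or macrophage gate cells Klrk1 stood at 73.1 (68.4 to 78.0) CPM in the IRF4 and 34.4 (32.3 to 36.6) CPM in the control library.

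**Figure D3:**
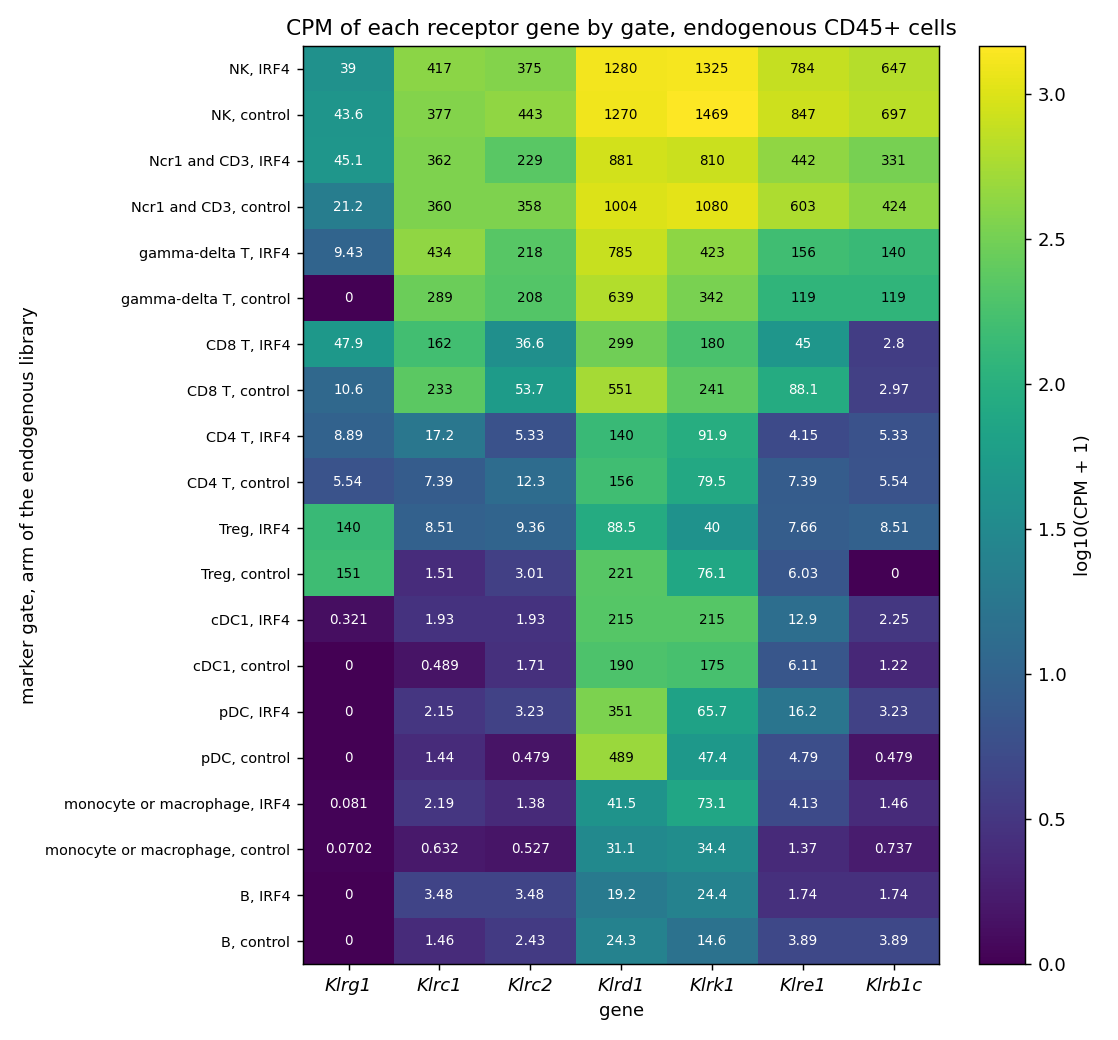
Heat map of CPM (printed in each field, colour on a log10(CPM + 1) scale) for the 7 genes in 10 marker gates, with the IRF4 library above the control library of endogenous CD45+ cells. The NK rows are highest for 5 of the genes, Klrg1 is highest in the Treg rows, and Klrd1 is also present in the dendritic cell rows.

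In single cells, NK gate cells held most of the receptor genes together, and CD8 T gate cells held few. After thinning to 2000 UMIs, a mean of 4.28 and 4.43 of the 7 genes were detected per NK gate cell in the endogenous IRF4 and control libraries. In the CD8 T gate the means were 1.59 in transferred IRF4, 1.62 in transferred control, 1.10 in endogenous IRF4 and 1.32 in endogenous control cells. No gene of the 7 was detected in 17.4%, 18.7%, 41.7% and 29.0% of those CD8 T gate cells, in the same order of libraries, against 0.416% and 0.474% of NK gate cells. The means in B gate cells were 0.0818 and 0.0473.

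**Figure D4:**
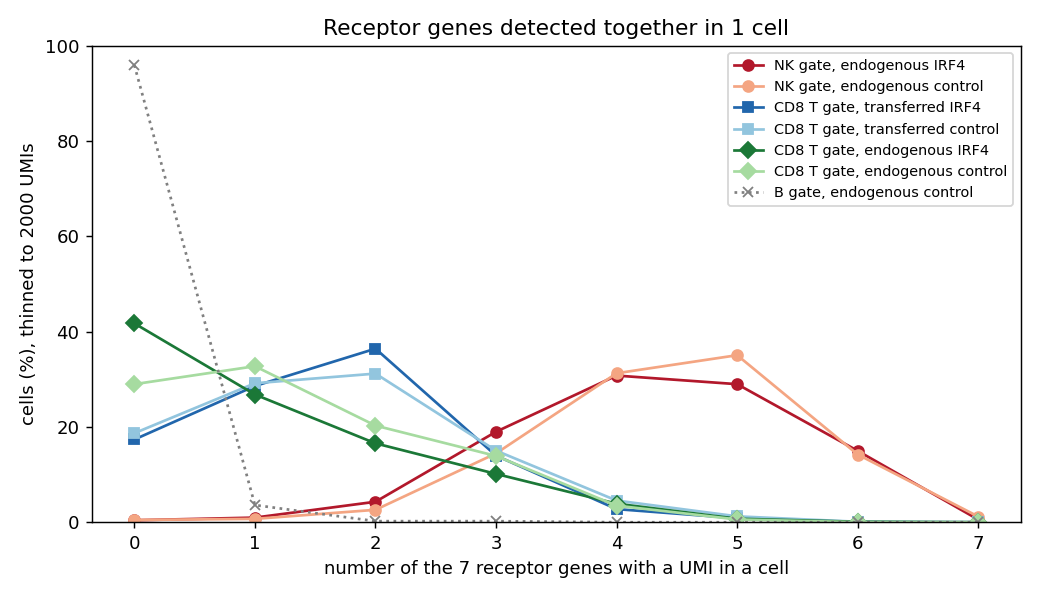
Share of cells (%) by the number of the 7 receptor genes with a UMI, each cell thinned to 2000 UMIs, for NK and CD8 T gate cells by library and for B gate cells of the endogenous control library. NK gate cells centre on 4 and 5 genes, CD8 T gate cells on 0 to 2, and B gate cells on 0.

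Endogenous CD8 T gate cells with Klrc1 also had Klrk1 and Klrd1 in larger shares than those without. In the endogenous IRF4 library 53.8% of thinned cells with a Klrc1 UMI (444 cells) also had Klrk1, against 17.0% of those without (1458 cells), and 59.5% against 30.9% had Klrd1. In the endogenous control library Klrk1 was found in 46.8% of 188 cells with Klrc1 against 20.9% of 502 without, and Klrd1 in 65.4% against 48.8%. These shares were not taken by cycle UMIs. With over without a Mki67 or Top2a UMI, Klrc1, Klrk1 and Klrd1 stood at 0.679, 0.544 and 0.577 in the endogenous IRF4 library. In the endogenous control library they stood at 1.21, 0.982 and 0.918. The part of cycling cells in the shares was not tested. In the transferred control library Klrk1 was found in 67.1% (63.1 to 70.9) of 583 cells with Klrc1 against 49.97% (47.3 to 52.6) of 1439 without, and Klrd1 in 62.95% (58.9 to 66.9) against 54.4% (51.8 to 57.01). In the transferred IRF4 library the intervals overlapped, with Klrk1 in 68.2% (58.5 to 76.9) of 107 against 62.7% (57.6 to 67.7) of 365 cells and Klrd1 in 59.8% (49.9 to 69.2) against 55.3% (50.1 to 60.5). In the NK gate Klrk1 was found in 91.6% of cells with and 91.2% of cells without Klrc1 in the IRF4 library, and Klrd1 in 88.4% and 88.8%. Most NK gate cells held both genes, which leaves little room for a difference, so this is no contrast with the CD8 T gate.

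Among CD8 T gate cells with Klrg1, by contrast, the shares with Klrd1 and Klrc1 were smaller in the endogenous IRF4 library. In the endogenous IRF4 library Klrd1 was detected in 20.4% (14.1 to 28.0) of 142 thinned cells with a Klrg1 UMI and in 38.9% (36.6 to 41.2) of 1760 without. Klrc1 was detected in 12.7% (7.69 to 19.3) and 24.2% (22.2 to 26.3), and Klrk1 in 18.3% (12.3 to 25.7) and 26.2% (24.2 to 28.3). The intervals do not overlap for Klrd1 and Klrc1 and overlap for Klrk1. Cells with Klrg1 were deeper before thinning, with a median of 17616.5 UMIs against 10501.5, and 74 of the 142 had a Mki67 or Top2a UMI, so the shares were also taken by cycle UMIs. Klrd1 was found in 14.9% (7.66 to 25.04) of 74 Klrg1 cells and 26.6% (22.99 to 30.4) of 568 others with a cycle UMI, and in 26.5% (16.5 to 38.6) of 68 and 44.8% (41.9 to 47.7) of 1192 without, so that the intervals overlapped with and not without a cycle UMI. For Klrc1 they overlapped without a cycle UMI, at 19.1% (10.6 to 30.5) and 26.8% (24.3 to 29.5), and not with one, at 6.76% (2.23 to 15.1) and 18.7% (15.5 to 22.1). For Klrk1 they overlapped in both, at 27.9% and 30.4% without and 9.46% and 17.4% with a cycle UMI. Klrc2 with a cycle UMI, at 5.41% and 4.58%, and Klre1 without one, at 7.35% and 6.88%, stood slightly higher in Klrg1 cells, with overlapping intervals. In the endogenous control library only 17 thinned cells had Klrg1. Klrd1 was found in 52.9% (27.8 to 77.02) of them and in 53.3% (49.5 to 57.2) of the other 673. Klrc1 was found in 41.2% (18.4 to 67.1) and 26.9% (23.6 to 30.4). In the transferred control library, with only 10 Klrg1 cells, the direction was the reverse. A Klrg1 UMI was found there in 1.54% (0.708 to 2.91) of cells with Klrc1 and 0.0695% (0.00176 to 0.387) of cells without. By Klrd1 these shares were 0.783% (0.358 to 1.48) and 0.115% (0.0029 to 0.637). In NK gate cells of the IRF4 library Klrd1 was found in 91.3% of 46 cells with Klrg1 and 88.4% of 675 without. Shares this high leave little room for a difference.

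**Figure D5:**
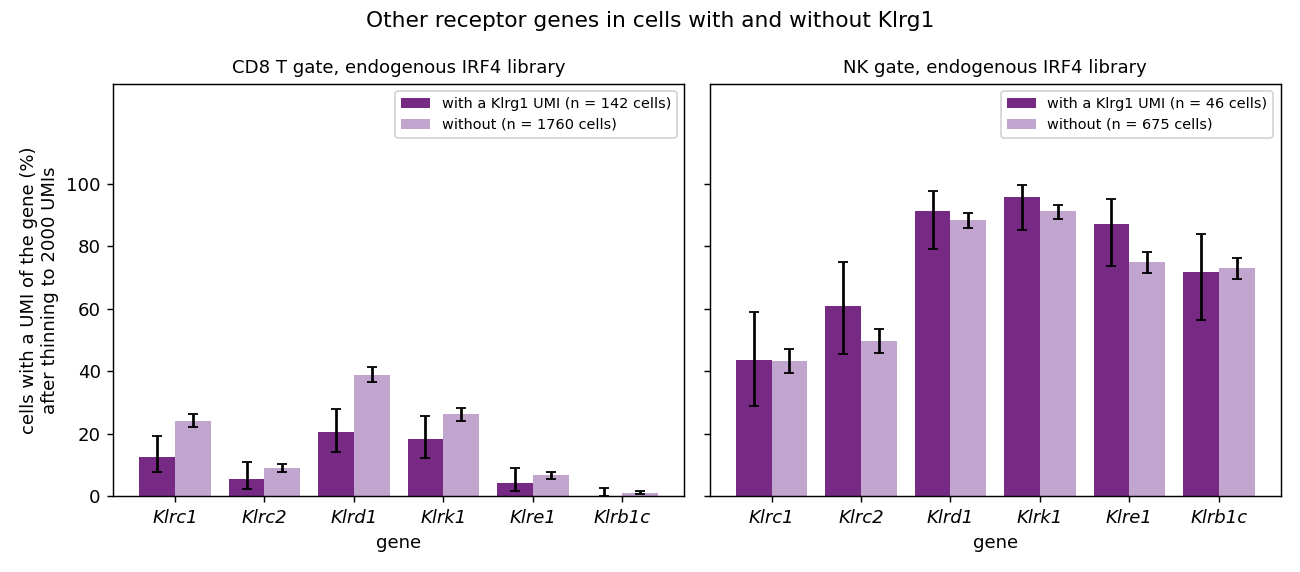
Share of thinned cells (%) with a UMI of each other receptor gene, in cells with a Klrg1 UMI (dark bars) and without (light bars), for the CD8 T gate and the NK gate of the endogenous IRF4 library, with 95% Clopper-Pearson intervals. In the CD8 T gate Klrd1 stands at 20.4% with and 38.9% without Klrg1, and in the NK gate at 91.3% and 88.4%.

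The level of Klrg1 also differed with some of the differentiation markers used to split each cell type, and not with others. Cells were split by a UMI of the marker after thinning, and levels were taken from all their UMIs. CD8 T gate cells with a Tcf7 UMI, the gene of the memory and stem-like T cell factor TCF1, had 13.4 CPM of Klrg1 against 50.8 CPM in cells without in the endogenous IRF4 library, a ratio of 0.264 (0.182 to 0.370), and 3.67 against 11.7 CPM in the endogenous control library, a ratio of 0.314 (0.09998 to 0.757). The arms differed for Klrk1, Klrc1 and Klrd1 in the same split. Klrk1 had 342 CPM in cells with Tcf7 against 166 CPM in cells without in the endogenous IRF4 library, a ratio of 2.06 (1.91 to 2.21). In the endogenous control library it had 190.2 against 248 CPM, a ratio of 0.767 (0.671 to 0.872). The ratios in the endogenous IRF4 and control libraries were 1.48 (1.36 to 1.61) and 0.627 (0.542 to 0.723) for Klrc1. They were 1.45 (1.36 to 1.54) and 0.899 (0.829 to 0.974) for Klrd1. For Klre1 they were 1.37 (1.15 to 1.62) and 0.823 (0.662 to 1.01), the last interval including 1. Klrc2 stood at 2.31 (1.97 to 2.69) and 1.24 (0.978 to 1.56). These differences between arms were not tested. Cells with Tcf7 were shallower, with medians of 6919.5 against 12996 UMIs in the endogenous IRF4 and 6818 against 10154 in the endogenous control library. Klrk1 with over without a Mki67 or Top2a UMI stood at 0.544 in the IRF4 and 0.982 in the control library. The split was not taken by cycle UMIs, and the part of cycle and depth was not tested. Cells with a Pdcd1 UMI and cells without had 48.9 and 47.05 CPM of Klrg1 in the endogenous IRF4 library, and 13.95 and 8.96 CPM in the endogenous control library. With over without Havcr2, Klrg1 stood at 0.933 (0.807 to 1.08) in the endogenous IRF4 and 1.02 (0.626 to 1.61) in the endogenous control CD8 T gate. By Tcf7 it stood at 1.08 (0.266 to 3.33) in transferred IRF4 and 0.592 (0.305 to 1.07) in transferred control cells. By Eomes in NK gate cells it stood at 0.767 (0.544 to 1.07) in the IRF4 and 0.892 (0.580 to 1.35) in the control library. Each of these ratio intervals includes 1. In NK gate cells Klrg1 was lower with Cd27, which mature NK cells lose, at 21.4 against 44.3 CPM in the IRF4 library, a ratio of 0.483 (0.294 to 0.759), and 11.02 against 57.5 CPM in the control library, a ratio of 0.192 (0.0806 to 0.393). It was higher with Itgam, the gene of the maturity marker CD11b, at 64.8 against 36.2 CPM in the IRF4 library, a ratio of 1.79 (1.15 to 2.69), and 92.03 against 34.6 CPM in the control library, a ratio of 2.66 (1.72 to 4.04). For Klrd1, Klrk1 and Klre1 the ratios with over without Cd27 or Itgam in NK gate cells of both libraries lay between 1.03 (0.939 to 1.14), for Klre1 with Cd27, and 1.297 (1.18 to 1.42), for Klrd1 with Itgam, both in the control library. With Itgam, Klrc2 stood at 1.47 (1.27 to 1.69) in the IRF4 and 1.32 (1.13 to 1.53) in the control library. Klrb1c stood at 1.37 (1.22 to 1.53) and 1.15 (1.02 to 1.31), and Klrc1 at 1.04 (0.886 to 1.21) and 0.907 (0.748 to 1.09). With Cd27, Klrc1, Klrc2 and Klrb1c lay between 0.930 (0.802 to 1.08), for Klrc1, and 1.15 (1.01 to 1.30), for Klrc2, both in the control library.

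Of the 6 partners and adaptors listed with the receptors (Hcst, Tyrobp, Fcer1g, Klri1, Klri2 and Klrc3), 3 were measured in the endogenous CD8 T gate between arms, and 2 were lower in the IRF4 arm. In this comparison 6.89% of all measured genes were lower and 10.7% were past the threshold in either direction. Tyrobp had 61.1 (58.5 to 63.8) CPM in endogenous IRF4 and 193 (185 to 202) CPM in endogenous control cells, and Fcer1g, the Fc receptor gamma chain, had 67.2 (64.4 to 70.03) and 240.1 (231 to 250) CPM. Both are abundant in myeloid cells, whose markers were lower in the same arm, and their part was not tested. Hcst had 334 and 361 CPM and was neither. Among ITIM phosphatases 1 of 3 was lower, Ptpn6 (SHP-1), at 103 and 201 CPM. Of 7 proximal signalling genes 2 were lower, Syk at 3.83 and 15.7 CPM and Lyn at 10.5 and 26.9 CPM, kinases that myeloid and B cells use. In NK gate cells none of the 4 measured partners, 3 phosphatases or 7 signalling genes was past the threshold between arms. Of all measured genes 5.69% were, so counts of none in lists this short do not set them apart. In transferred cells Tyrobp, at 21.6 and 46.8 CPM, and Fcer1g, at 35.3 and 100.8 CPM in the IRF4 and control libraries, were lower, and none of 3 phosphatases or 5 measured signalling genes was past the threshold. Of all genes measured there 3.25% were lower and 6.91% were past the threshold in either direction.

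Of 11 genes listed as ligands (H2-T23, H2-D1, H2-K1, Cdh1, Cdh2, Cdh4, Raet1d, Raet1e, H60b, H60c and Ulbp1) only the 3 class I genes were measured in these gates. None was past the threshold between arms in any of the gates. Of all measured genes 10.7% were in the endogenous CD8 T gate, 5.69% in the NK gate and 6.91% in the transferred CD8 T gate. A count of none among 3 genes does not set them apart. Of these 3, only H2-T23 encodes a ligand named above. H2-T23, which encodes Qa-1b, had 399 and 399 CPM in the endogenous IRF4 and control CD8 T gate and 293 and 287 CPM in the transferred IRF4 and control CD8 T gate. Tumour cells were not profiled, so these values say nothing of ligands on the tumour. Of 7 further lectins of the complex 6 were in the files, and all 6 (Klrb1a, Klrb1b, Klrb1f, Clec2d, Clec2i and Cd69) were higher in the NK than the CD8 T gate of both endogenous libraries. Among all measured genes 19.1% were higher in the NK gate of the IRF4 and 17.4% in that of the control library. Between arms 0 of the 3 measured were past the threshold in endogenous CD8 T gate cells, and in transferred cells Clec2i was lower, at 17.2 CPM in the IRF4 and 38.1 CPM in the control library. The shares over all measured genes were 10.7% in either direction in the former and 3.25% lower in the latter.

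Likeness of pattern was taken as Pearson's r of log2(CPM + 1) over 23 pairs of a gate and a library with at least 50 cells, among 5440 genes. The pairs share libraries and ambient RNA, so r is a description. Klrc1 and Klrc2 also share sequence at their 3' ends, and the part of this in the r between them was not tested. Klrc1 was most like Klrc2 (r = 0.967), Cd160 (0.959) and Samd3 (0.958), and Klrc2 was most like Samd3 (0.973), Klrc1 (0.967) and Dapk2 (0.951). Klrd1 was most like Enpp4 (0.877), Klrk1 (0.870) and Cdca7l (0.870), and Klrk1 was most like Serpinb9 (0.922), Il12rb2 (0.920) and Klre1 (0.913). Klre1 was most like Klra7 (0.949), Klrc2 (0.945) and Eomes (0.936), and Klrb1c was most like the Ly49 genes Klra9 (0.964) and Klra7 (0.953) and then Khdc1a (0.9395). Klrg1 was most like Traf2 (0.888), Mbd2 (0.886) and Prkar1a (0.875), and its r with the other 6 genes was between 0.438 and 0.528.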

How the data were processed

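Droplet 3' RNA counts were analysed from 4 libraries, 1 per group, with groups taken from the labels. The deposited counts are raw UMI counts per gene and barcode, made by the authors on mm10; the submitters' processing notes name STAR 2.6 and Cell Ranger 3.0.2. The annotation behind them was not given in the sources used here, and the labels' protocols speak of a nucleus suspension as well as of sorted cells. Barcodes with at least 1000 UMIs, 500 genes and at most 10% mitochondrial UMIs were kept. Doublets were not removed: Scrublet (expected rate 0.06, in scanpy 1.11.5) marked 4 of 15132 cells and did not work. Cells were gated on raw UMIs, UMIs were summed per gate and library, and sums were scaled to CPM, with a pseudocount of 1 CPM for calls. Exact Poisson, conditional binomial and Clopper-Pearson intervals (scipy 1.17.1, numpy 2.4.6, pandas 2.3.3, Python 3.11.15, matplotlib 3.10.9) cover counting error only, and a count of 0 allows 3 counts. Thinning drew 2000 UMIs per cell, leaving out 3 transferred control and 1 endogenous IRF4 CD8 T gate cells and 3 endogenous IRF4 and 1 endogenous control NK gate cells. The ratio code was tested on simulated data. The 7 genes, the gates and the lists were chosen with earlier results of these data known. The text names the 7 genes, genes of the lists and the 3 genes most like each of the 7. The sums of markers of other cell types were added after the data were seen. Each comparison was repeated under 16 planned and 3 added alternatives where they applied.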

Additional observations from a re-analysis of the deposited data

Results flagged for a closer look

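In 4 cases a gene moved in opposite directions in a pair of groups under the same contrast, each with an interval that leaves out 1. None of these differences was tested, with 1 library per group, and no explanation is weighed. Klrk1 stood at 1.17 (1.14 to 1.21) in the IRF4 over the control arm in transferred CD8 T gate cells and at 0.747 (0.713 to 0.783) in endogenous ones. Klrc1 stood at 1.11 (1.02 to 1.20) in the IRF4 over the control arm in NK gate cells and at 0.694 (0.662 to 0.729) in endogenous CD8 T gate cells. Klrg1 stood at 0.813 (0.691 to 0.952) in NK over CD8 T gate cells of the endogenous IRF4 library and at 4.10 (3.11 to 5.39) in those of the endogenous control library. Klrd1 stood at 1.25 (1.21 to 1.29) in transferred over endogenous CD8 T gate cells of the IRF4 arm and at 0.830 (0.806 to 0.854) in those of the control arm. The sign of the log2 ratio changed under 2 of 16 alternatives for Klrk1 and 1 of 16 for Klrc1 between arms in endogenous CD8 T gate cells. It changed under 1 of 17 for Klrg1 in the endogenous IRF4 library and 4 of 16 for Klrd1 in the control arm. It changed under none of the alternatives for Klrk1 in transferred cells between arms, Klrc1 in NK gate cells between arms, Klrg1 in the endogenous control library or Klrd1 in the IRF4 arm.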

How the results depend on the processing

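Each library is the only one of its group, so no library could be left out. No paired analysis was possible because each group has 1 library and the labels give no shared replicate numbers. Of the counts of genes past the threshold recomputed under an alternative, 235 stayed within 1.5 times and 17 moved. In endogenous CD8 T gate cells between arms the count of higher genes was 1 and became 2 in cells without a cycle gene UMI. The count of lower genes was 2 and became 0 without the myeloid limit, with the mean of per-cell CPM, without cycle gene UMIs and at a ratio of 2, became 1 after thinning, and became 4 without the 6% highest Scrublet scores. In transferred cells between arms the count of lower genes was 0 and became 1 after thinning and with no level floor. For NK over CD8 T gate cells of the IRF4 library it was 0 and became 1 without the 5% of cells with the most UMIs. For transferred over endogenous cells of the IRF4 arm the count of higher genes was 1 and became 2 after thinning and with the mean of per-cell CPM. In the control arm it was 1 and became 0 at a ratio of 2, and the count of lower genes was 2 and became 1 without the myeloid limit, with the mean of per-cell CPM and without the 5% of cells with the most UMIs, and 0 without cycle gene UMIs. Of the log2 ratios of single genes 599 kept within their counting interval, 184 moved and 1 that was past the threshold turned round: Klre1 between arms in endogenous CD8 T gate cells, at 0.089 in cells without cycle gene UMIs against -0.95 in all. The cause of these shifts was not tested. Without the Ncr1 condition of the CD8 T gate, an alternative chosen after seeing the data, the log2 ratio of Klrb1c between arms was 0.88 against -0.06. Another scaling moved the median of all genes by less than 0.1 on the log2 scale in each comparison. Klrg1 and Klrb1c in transferred IRF4 cells rest on 21 and 3 UMIs, which limits what can be said of them.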

Other observations

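CD8 T gate cells with a Cx3cr1 UMI, a marker of cytolytic effector cells, were few but rich in several of the receptors. In the endogenous IRF4 library 45 such cells had 762.4 CPM of Klrd1, against 288 CPM in cells without, a ratio of 2.65 (2.43 to 2.87), and 139.9 against 42.7 CPM of Klre1, a ratio of 3.28 (2.67 to 3.98). In the endogenous control library 30 such cells had 874 against 527 CPM of Klrd1, a ratio of 1.66 (1.53 to 1.80), and 189.1 against 80.6 CPM of Klre1, a ratio of 2.35 (1.94 to 2.82). In transferred control cells Klrg1 stood at 8.06 CPM in 58 cells with Cx3cr1 and 1.01 CPM in cells without, a ratio of 8.01 (4.04 to 14.7). In the endogenous IRF4 library Klrg1 stood at 34.03 and 48.3 CPM in cells with and without Cx3cr1, a ratio of 0.705 (0.463 to 1.03).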
